A study of Homo sapiens with 6 samples.

Results

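The transcripts described here are those of 9 genes of transforming growth factor beta (TGF-beta) signalling: the ligand genes TGFB1 and GDF15, the receptor genes TGFBR1 and TGFBR2, and SMAD1, SMAD2, SMAD3, SMAD4 and SMAD7. They were chosen by name with earlier results of these data known, so the share of them called is a description only. All 9 were found by Ensembl identifier among the 57905 genes of the count table. RNA sequencing had been carried out on HCT116, a human colorectal carcinoma line with wild-type p53, which was grown with the drug vehicle DMSO (Nut 0h) or with 10 µM of Nutlin-3a for 1 h (Nut 1h) or 10 h (Nut 10h). Nutlin-3a blocks the binding of p53 by its inhibitor HDM2 and so raises p53 activity. Each condition had 2 libraries, labelled as biological replicates, and all 6 came from the same line. The same vehicle libraries served as control for both treatment times, so the comparisons with vehicle share them. A member was called when edgeR's quasi-likelihood test gave it a Benjamini-Hochberg adjusted p of at most 0.05 over all 16565 genes tested, and all 9 passed the filter on low counts.

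TGF-beta ligands bring together a type II receptor, encoded by TGFBR2 for TGF-beta itself, and a type I receptor, encoded by TGFBR1, whose kinase phosphorylates SMAD2 and SMAD3. SMAD1 carries the signal of the related bone morphogenetic proteins (BMPs), SMAD4 is the partner shared by both branches, and SMAD7 is an inhibitory SMAD that the pathway itself induces. GDF15 is a distant member of the ligand family, is a known p53 target and binds the receptor GFRAL rather than the TGF-beta receptors. HCT116 cells are deficient in DNA mismatch repair and carry frameshift mutations in a run of adenines in the coding sequence of TGFBR2, so transcript levels of that gene do not give the level of a working receptor.

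The libraries held 26068076 to 35473485 counts in genes. MDM2, which encodes HDM2 and is itself a p53 target, had 1688 and 2083 normalized counts in vehicle, 8694 and 8500 in the 1 h libraries and 22633 and 27946 in the 10 h libraries, so the treatment was visible in every treated library. Of 10 colon epithelial markers, 7 had a mean over 1 CPM, the count scaled by the library total: EPCAM, CDH1, KRT8, KRT18, KRT19, CDX2 and CLDN3. KRT20, VIL1 and CDX1 did not. A further endothelial marker on the list was not found in the count table by name. None of 5 fibroblast, 5 leukocyte or 3 endothelial markers reached 1 CPM. Their summed levels were 0.23 to 1.74, 0.126 to 0.733 and 0.536 to 2.46 CPM over the 6 libraries, and DCN and LUM were at 0. The summed colon epithelial markers were at 5673 and 5003 CPM in vehicle, 3525 and 3720 in the 1 h libraries and 7338 and 6361 in the 10 h libraries. Mitochondrial genes took 4.99% and 6.18% of the counts in vehicle, 8.44% and 8.15% after 1 h and 6.45% and 7.06% after 10 h. The part of these shifts in the results at Nut 1h was not tested. Changes at Nut 1h followed the GC content of the transcripts over the whole table. Of 5 equal classes of tested genes by GC content, in the lowest (23.1% to 41.0%) 81.1% were called higher at Nut 1h with a median log2 fold change of 0.76, and in the highest (58.4% to 96.3%) 81.3% were called lower with a median of -1.03. The same medians at Nut 10h lay between -0.07 and 0.04. The log2 fold changes of the 9 genes and of the pathway genes at Nut 1h are therefore given together with the value after a GC-content offset, which removes the part of a change shared by genes of like GC content and takes any true change shared by them away as well. Whether the trend came from the cells or from the libraries was not tested.

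**Figure D1:**
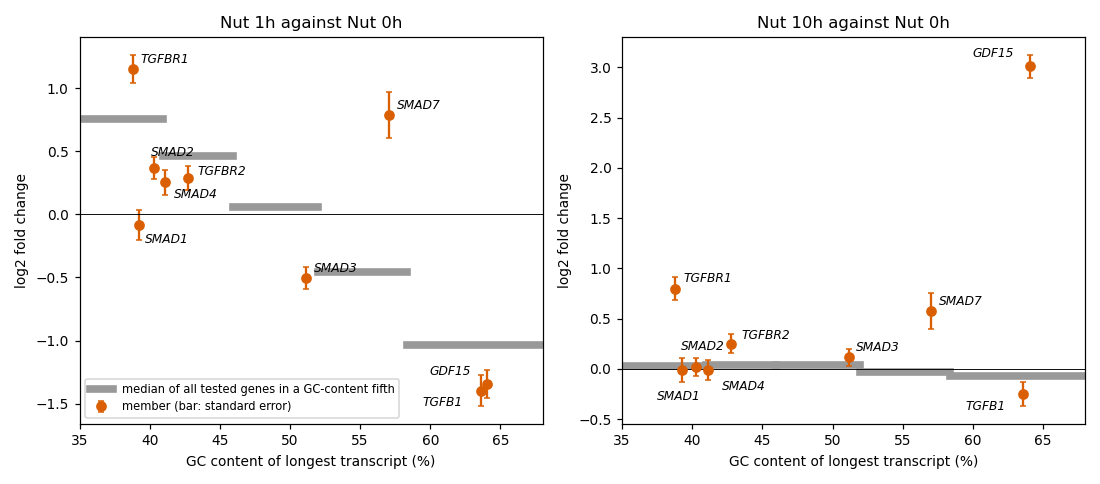
Log2 fold change of the 9 genes (points, with standard error) against the GC content of the longest transcript in percent, at Nut 1h (left) and Nut 10h (right). Grey bars are the medians of all tested genes in 5 GC-content classes, the outer of which run past the x axis. They step from 0.76 to -1.03 at Nut 1h and stay between -0.07 and 0.04 at Nut 10h. At Nut 10h GDF15, TGFBR1 and SMAD7 lie farthest above them, and TGFBR2 and SMAD3 lie above them by less.

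Against the vehicle, 5 of the 9 genes were called higher at Nut 1h (TGFBR1, TGFBR2, SMAD2, SMAD4 and SMAD7), 3 were called lower (TGFB1, SMAD3 and GDF15), and SMAD1 was not called. Over all tested genes, 34.5% were called higher and 32.3% lower in this comparison. With the GC-content offset, 2 were called higher (TGFBR1 and SMAD7) and 6 lower, against 19.8% and 25.4% over all genes under the same setting. At Nut 10h, 3 of the 9 were called higher (GDF15, TGFBR1 and SMAD7) and 0 lower, against 14.1% higher and 14.9% lower over all tested genes. No call at Nut 10h changed with the offset for these 3 genes, while TGFBR2 was then also called higher and TGFB1 lower, against 16.8% and 23.1% over all genes under that setting. The added TGFBR2 call was lost when a replicate block was put beside the offset (adjusted p = 0.0508). From Nut 1h to Nut 10h, 3 were called higher (GDF15, TGFB1 and SMAD3) and 3 lower (TGFBR1, SMAD2 and SMAD4), against 34.2% and 33.7% over all tested genes. The members had a median log2 fold change of 0.25 after 1 h and 0.11 after 10 h, beside 0.05 and 0.00017 for all tested genes. With the offset the members' median after 1 h had the opposite sign, at -0.26 beside -0.025 for all genes. Counts are shares of a library, so less RNA per cell and fewer cells that express a gene cannot be told apart.

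**Figure D2:**
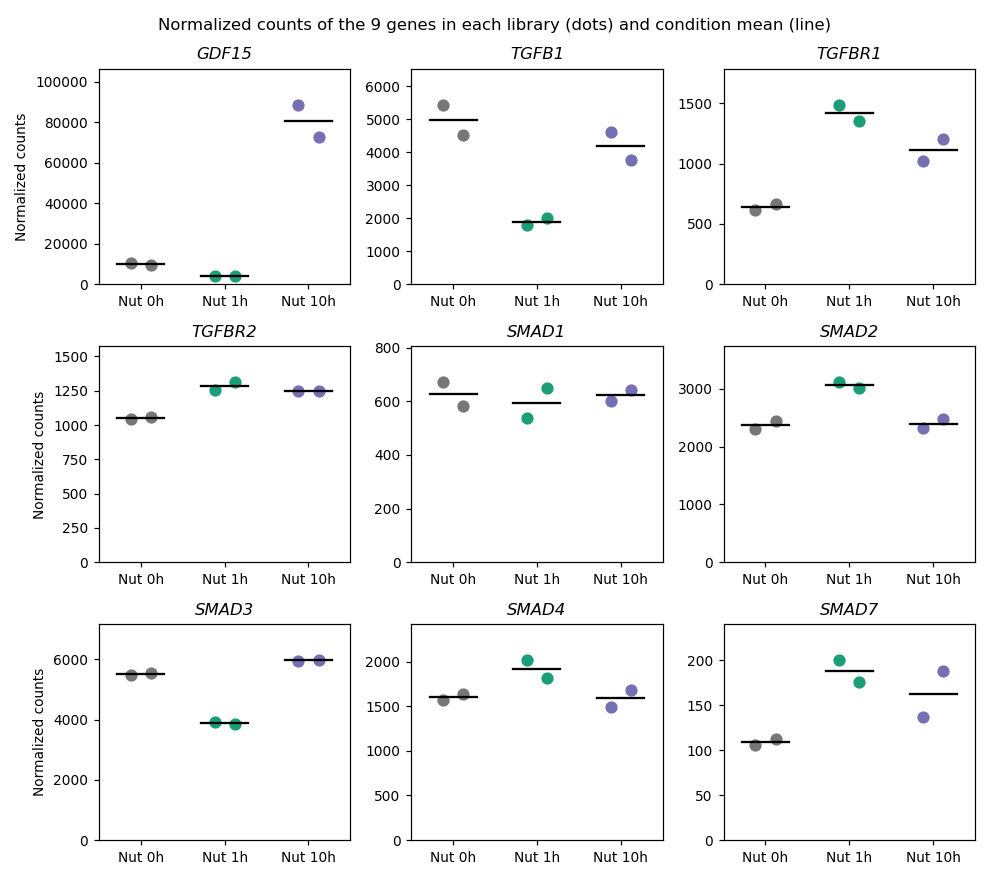
Normalized counts (y axis, from 0) of each of the 9 genes in each library (dots, 2 per condition) with the mean of the condition (line), in vehicle and at both treated times. GDF15 is set apart by its mean of 80603 normalized counts at Nut 10h, and TGFBR1 and SMAD7 are higher than vehicle in all 4 treated libraries.

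GDF15 (ENSG00000130513, GRCh37 chromosome 19, 18485541 to 18499986, plus strand), a secreted stress cytokine, had the largest change of the 9 at Nut 10h. It had 10490 and 9528 normalized counts in vehicle, 3909 and 3971 in the 1 h libraries and 88666 and 72539 in the 10 h libraries. The 3 conditions did not overlap, with the treated libraries below vehicle at 1 h and far above it at 10 h. The rise at Nut 10h was 8.05-fold (log2 fold change 3.01, SE 0.12, adjusted p = 7.64e-10 by edgeR's quasi-likelihood test), and 3.03 on the log2 scale with the GC-content offset. At Nut 1h GDF15 fell by 1.35 on the log2 scale (SE 0.11, adjusted p = 3.31e-07 by edgeR's quasi-likelihood test). Its longest transcript has a GC content of 64.1%, in the class of genes whose median was -1.03, and with the offset the difference was -0.14 with an adjusted p of 0.165, which was not called. CDKN1A, the p53 target that encodes the cell cycle inhibitor p21, had 10629 and 9286 normalized counts in vehicle, 9837 and 10726 in the 1 h libraries and 145531 and 139682 in the 10 h libraries, so at 1 h its libraries overlapped vehicle while MDM2 was 4.56-fold higher. With the offset the 1 h log2 fold changes of MDM2 and CDKN1A were 1.48 and 0.72. GFRAL, the receptor gene for GDF15, had 0 counts in every library, which allows a level of up to 0.0846 to 0.115 CPM by counting error.

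Among the 9 genes, a p53-like response element at the start of transcription was found in GDF15. It is shown because GDF15 had the largest rise after p53 activation. The search for this full element was added after a search for single decamers without mismatch, which had found no match in GDF15. The window of 250 bases before to 50 after each RefSeq start site (GRCh38.p14, the build of the promoter table, whereas the counts rest on GRCh37) was searched for 2 adjacent p53 decamers with intact cores and at most 3 mismatches to the consensus. The consensus reads the same on both strands. The GDF15 match starts at base 29 after the start site, and its cores are in capitals. It has 3 mismatches, the most that the search allowed, so a stricter limit would have given no match in any member.
GDF15, chr19:18386186-18386205, plus strand: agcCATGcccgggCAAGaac
Of 35116 windows of the same length, 150 (0.427%) held such an element, and of the 28 windows of the 9 genes it was in 1. A match is a description of letters only, and binding was not measured here.

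TGFB1 (ENSG00000105329, chromosome 19, 41807492 to 41859827, minus strand) encodes the ligand that gives the pathway its name. It had 5453 and 4524 normalized counts in vehicle, 1784 and 2004 in the 1 h libraries and 4606 and 3763 in the 10 h libraries. Both Nut 1h libraries lay below all others, and the Nut 10h pair overlapped the vehicle pair. The fall at Nut 1h was 2.64-fold (log2 fold change -1.40, SE 0.12, adjusted p = 5.01e-07 by edgeR's quasi-likelihood test). Its GC content is 63.6%, and the difference with the offset was -0.23 (adjusted p = 0.0135). At Nut 10h the log2 fold change was -0.25 (95% interval -0.51 to 0.00152, adjusted p = 0.128), which was not called. Leaving out Nut 0h replicate 2 or Nut 10h replicate 1 turned it into a call, at -0.38 and -0.40. Exons of TGFB1 overlap those of HNRNPUL1 on the opposite strand, a gene with 67606 counts in the 6 libraries, and the strand setting of the counting was not given in the sources used here, so reads of this overlap may belong to either gene.

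TGFBR1 (ENSG00000106799, chromosome 9, 101866320 to 101916474, plus strand), the type I receptor kinase, was higher than vehicle at both times and under each normalization tried. It had 614.6 and 663 normalized counts in vehicle, 1490 and 1352 in the 1 h libraries and 1020 and 1202 in the 10 h libraries. All 4 treated libraries were above both vehicle libraries, and both Nut 1h libraries were above both Nut 10h libraries. The rise was 2.23-fold at Nut 1h (log2 fold change 1.15, SE 0.11, adjusted p = 1.1e-06) and 1.74-fold at Nut 10h (0.80, SE 0.11, adjusted p = 9.77e-05), both by edgeR's quasi-likelihood test. Its GC content of 38.8% is in the class of genes whose median rose by 0.76 at Nut 1h, and the rise with the offset was 0.41 at Nut 1h (adjusted p = 0.000408) and 0.76 at Nut 10h (adjusted p = 5.19e-07). The order of the treated times turned with the offset: from Nut 1h to Nut 10h the log2 fold change was -0.36 (adjusted p = 0.00996) without it and 0.35 (adjusted p = 0.00062) with it. Without Nut 1h replicate 1 or Nut 10h replicate 1 the fall seen without the offset was no longer called (-0.28 and -0.21).

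TGFBR2 (ENSG00000163513, chromosome 3, 30648093 to 30735634, plus strand), the type II receptor, moved little. It had 1042 and 1059 normalized counts in vehicle, 1255 and 1310 in the 1 h libraries and 1248 and 1248 in the 10 h libraries, so both treated pairs lay above vehicle. Its log2 difference from vehicle was 0.29 after 1 h (SE 0.09, adjusted p = 0.0146 by edgeR's quasi-likelihood test) and 0.25 after 10 h (SE 0.09, 95% interval 0.05 to 0.45, adjusted p = 0.0608, not called; 0.29 and called with upper-quartile scaling, adjusted p = 0.0283). The direction at Nut 1h was not kept with the GC-content offset (-0.26, adjusted p = 0.0141), and the call was lost without Nut 0h replicate 1, Nut 1h replicate 1 or Nut 1h replicate 2 (0.26 to 0.32) and with no filter on low counts (0.24). At Nut 10h, by contrast, the offset value was close to the first, at 0.21 (adjusted p = 0.0397, and 0.0508 with the offset and a replicate block).

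Per transcript length, TGFBR2 exceeded TGFBR1 in vehicle by 1.90 and 1.79 times in the 2 libraries. The levels are TPM (transcript counts per length, scaled to the same total in each library), made here from the counts and the longest annotated transcript. After 1 h the ratio was 0.944 and 1.09, and after 10 h it was 1.37 and 1.16. All 4 treated libraries thus had a lower TGFBR2 to TGFBR1 ratio than both vehicle libraries. GDF15 exceeded TGFB1 by 3.62 and 3.96 times in vehicle, by 4.12 and 3.73 times at Nut 1h and by 36.2 and 36.3 times at Nut 10h on the same scale, so the ratio of the ligands at Nut 1h lay within or close to its vehicle range although both transcripts were lower in counts. The sizes of these ratios rest on the lengths: with the second-longest transcripts TGFBR2 to TGFBR1 was 2.34 and 2.21 in vehicle and 1.17 and 1.34 after 1 h, and GDF15 to TGFB1 was 1.64 and 1.79 in vehicle and 16.4 in both 10 h libraries. The ratios carry no GC-content offset.

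**Figure D3:**
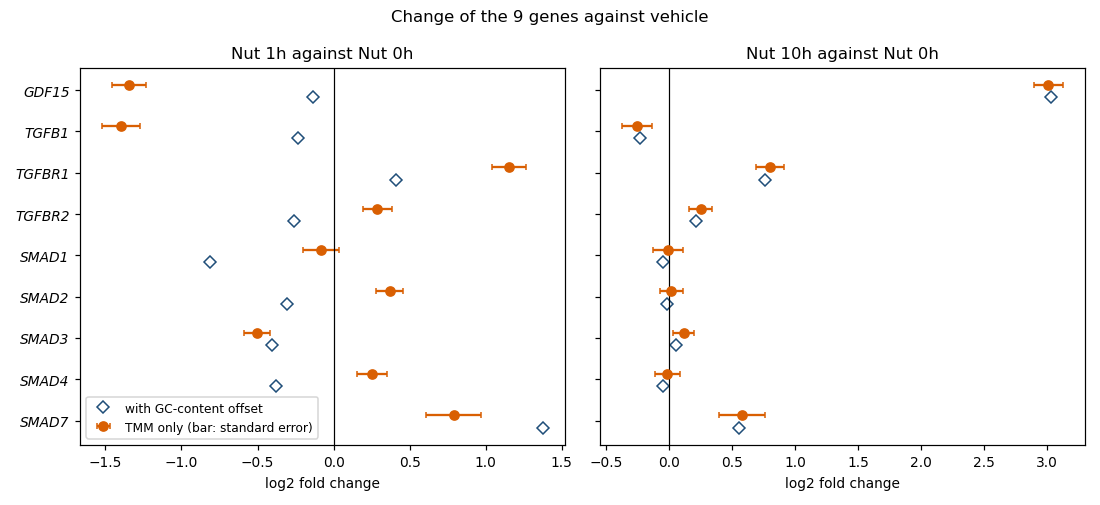
Log2 fold change of the 9 genes (rows) at Nut 1h (left) and Nut 10h (right) against vehicle, from TMM-normalized counts (filled, with standard error) and with a GC-content offset (open). At Nut 1h the offset moves GDF15 from -1.35 to -0.14 and turns TGFBR2, SMAD2 and SMAD4 below 0, while at Nut 10h open and filled symbols nearly coincide.

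The receptor-regulated SMADs differed from each other at Nut 1h. SMAD2 (ENSG00000175387, chromosome 18, 45335328 to 45457517, minus strand) had 2302 and 2449 normalized counts in vehicle, 3113 and 3017 in the 1 h libraries and 2331 and 2473 in the 10 h libraries. SMAD3 (ENSG00000166949, chromosome 15, 67356101 to 67487511, plus strand) had 5484 and 5546 in vehicle, 3908 and 3866 in the 1 h libraries and 5960 and 5968 in the 10 h libraries. These partners of the same receptor went in opposite directions at 1 h without the offset, and neither was called at 10 h. SMAD2 rose by 0.37 on the log2 scale at Nut 1h (SE 0.09, adjusted p = 0.00251), and SMAD3 fell by 0.50 (SE 0.09, adjusted p = 0.00015), both by edgeR's quasi-likelihood test. With the GC-content offset SMAD3 stayed lower (-0.41, adjusted p = 8.74e-05), and SMAD2 turned lower as well (-0.30, adjusted p = 0.00143). Their GC contents, taken from the longest transcript, are 40.3% and 51.1%. For SMAD2 this is an annotated transcript of 34626 bases, and an offset from another transcript was not tested. At Nut 10h the log2 fold changes were 0.02 (95% interval -0.18 to 0.21) for SMAD2 and 0.11 (95% interval -0.07 to 0.30, adjusted p = 0.361) for SMAD3. Both Nut 10h libraries of SMAD3 lay above both vehicle libraries, by a margin that the test did not call. SMAD3 was higher at Nut 10h than at Nut 1h with and without the offset (0.62 and, with the offset, 0.46).

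SMAD1 (ENSG00000170365, chromosome 4, 146402346 to 146480328, plus strand), which serves the BMP branch, was the member that was called in none of the 3 comparisons without the offset. It had 670.6 and 584.1 normalized counts in vehicle, 539.8 and 648.1 in the 1 h libraries and 602.3 and 643 in the 10 h libraries, and all 3 pairs overlapped. Its log2 difference from vehicle was -0.08 after 1 h (95% interval -0.34 to 0.18, adjusted p = 0.565 by edgeR's quasi-likelihood test) and -0.01 after 10 h (95% interval -0.27 to 0.25, adjusted p = 0.959). Genes of its GC content (39.2%) mostly rose at Nut 1h, and against them SMAD1 was lower, at -0.81 with the offset (adjusted p = 3.27e-05). At Nut 10h the offset value was -0.05.

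SMAD4 (ENSG00000141646, chromosome 18, 48554898 to 48611415, plus strand), the shared partner of both branches, had 1574 and 1636 normalized counts in vehicle, 2013 and 1815 in the 1 h libraries and 1496 and 1677 in the 10 h libraries. The Nut 1h pair was above the other 4 libraries, and the Nut 10h pair overlapped vehicle. The rise at Nut 1h was small (log2 fold change 0.25, SE 0.10, adjusted p = 0.0357 by edgeR's quasi-likelihood test). It was not called by DESeq2 or with DESeq2's size factors in edgeR (0.23 in each), with no filter on low counts (0.21), or when any 1 of the 4 libraries compared was left out (0.18 to 0.33), and it was -0.38 with the GC-content offset (adjusted p = 0.000365). After 10 h the difference was -0.02 (95% interval -0.23 to 0.20).

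SMAD7 (ENSG00000101665, chromosome 18, 46446223 to 46477335, minus strand), the inhibitory SMAD, had 105.3 and 112.7 normalized counts in vehicle, 199.7 and 176.2 in the 1 h libraries and 137.3 and 188 in the 10 h libraries. All 4 treated libraries were above both vehicle libraries, and the Nut 10h pair was spread more widely than the other pairs. It was 1.73-fold higher at Nut 1h (log2 fold change 0.79, SE 0.18, adjusted p = 0.00149) and 1.49-fold higher at Nut 10h (0.58, SE 0.18, adjusted p = 0.0268), both by edgeR's quasi-likelihood test. At 57.0% GC it lies in a class of genes whose median at Nut 1h was -0.46, and the rise with the offset was greater, at 1.38 (adjusted p = 1.15e-05), while the value at Nut 10h was 0.55 (adjusted p = 0.0219). The call at Nut 10h was lost by DESeq2 (0.57, adjusted p = 0.0642) and without Nut 0h replicate 1 (0.53) or Nut 10h replicate 2 (0.35).

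Perfect matches to the single p53 decamer were found in windows of TGFBR1 and SMAD3 and of no other member, and all of them are given. Any link between a match and the response of its gene was not tested. The copies are from the same RefSeq windows (GRCh38.p14) and have the core in capitals.
TGFBR1, chr9:99104047-99104056, plus strand: ggaCTAGtct
SMAD3, chr15:67098680-67098689, plus strand: aaaCAAGctt
SMAD3, chr15:67138023-67138032, plus strand: aaaCATGtct
SMAD3, chr15:67166440-67166449, plus strand: aggCAAGtct
A further copy, in SMAD3 at chr15:67137846-67137855, has the same letters as the first of SMAD3. Such a decamer was in 4 of the 28 windows of the members and in 6.63% of all windows, so a single copy is not rare. The SMAD-binding letters CAGAC, searched on both strands, were in 11 of the 28 windows (39.3%) and in 45.3% of all windows, and 5 of the 9 genes had at least 1 such window.

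On the per-length scale the order in vehicle was GDF15, TGFB1, SMAD3, SMAD1, TGFBR2, SMAD4, TGFBR1, SMAD2 and SMAD7. GDF15 stood at 506 ± 21.4 TPM (SD, n = 2), TGFB1 at 134 ± 14.2 and SMAD3 at 63.9 ± 2.15. SMAD1 (14.2 ± 1.02), TGFBR2 (13.6 ± 0.51) and SMAD4 (13.4 ± 0.711) were neighbours whose libraries overlapped. TGFBR1 followed at 7.37 ± 0.584, and SMAD2 at 5.14 ± 0.357 and SMAD7 at 2.44 ± 0.18 were the lowest. At Nut 10h GDF15 reached 4020 ± 406 TPM, and SMAD7 had 3.61 ± 0.94. The order rests on the lengths used, and that of SMAD2 is an annotated transcript of 34626 bases. When the second-longest transcript of every gene was used (12075 bases for SMAD2) its level in vehicle was 10.7 TPM, above TGFBR1 at 5.45 TPM, and TGFBR2 (12.4), SMAD1 (11.3) and SMAD4 (9.94) no longer overlapped. With the union of all exons as length, TGFBR2 was at 15.4 TPM, SMAD1 at 8.87 and SMAD4 at 8.22.

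**Figure D4:**
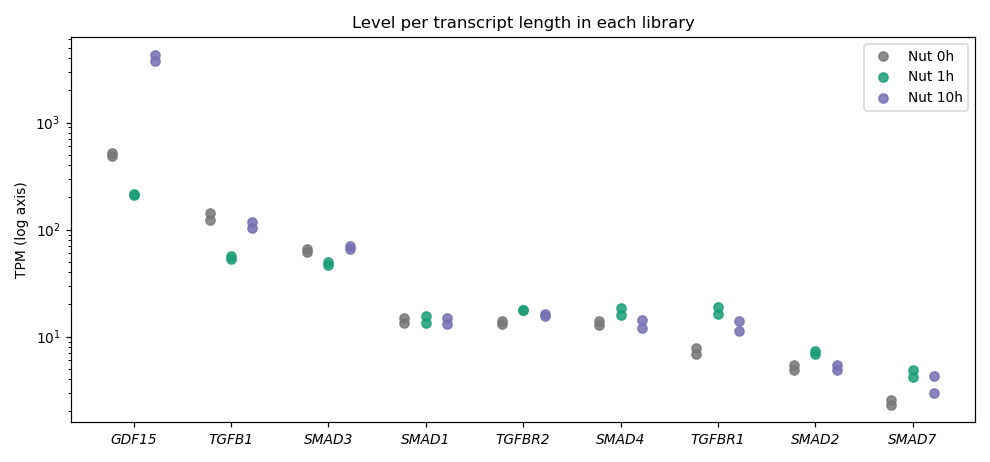
TPM (log axis) of the 9 genes in each of the 6 libraries, ordered by the vehicle mean, with the longest annotated transcript as length. Vehicle means run from 506 (GDF15) to 2.44 (SMAD7), and GDF15 at Nut 10h reaches 4020.

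The genes most like GDF15 in their pattern over the 6 libraries, by root mean square distance between centred log2(CPM + 1) values among 11575 genes, were PLXNB3 (0.342), SULF2 (0.434) and TP53I3 (0.458). Their log2 fold changes at Nut 10h were 2.97, 3.34 and 4.01, and at Nut 1h, without the offset, -0.87, -0.37 and -0.34. For TGFBR2 the nearest genes were at distances of 0.0266 (C17orf80), 0.0292 (SCPEP1) and 0.0296 (COX7A2L), and for SMAD7 at 0.0438 (CCNYL2), 0.0452 (SKAP2) and 0.0463 (WDR19). The distance grows with the size of a gene's own change, so the distances cannot be compared between the 3 genes.

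Beyond the 9 genes, 63 further genes of the pathway were listed by role, likewise with earlier results known. Of these, 53 passed the filter on low counts. At Nut 1h, 18 of the 53 were called higher and 18 lower (15 and 17 with the GC-content offset). This is 34.0% in each direction, close to the 34.5% and 32.3% over all tested genes, and with the offset 19.8% and 25.4% of all genes were called. At Nut 10h, 14 were called higher and 9 lower (16 and 11 with the offset), against 14.1% and 14.9% over all tested genes. With the offset 16.8% and 23.1% of all genes were called higher and lower at Nut 10h. The lists by role below are to be read against the same shares. Their median log2 fold change at Nut 10h was 0.09, beside 0.00017 for all tested genes.

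Of 10 ligands and latent TGF-beta carriers tested, 0 were called higher and 6 lower at Nut 1h, and 2 were called in each direction at Nut 10h. With the offset 3 were called higher and 4 lower at Nut 1h. LTBP3, which holds latent TGF-beta in the matrix, fell by 1.89 on the log2 scale at Nut 1h, and its value with the offset was -0.31. LTBP4, of the same family, went from -0.95 to 0.51 with the offset. LTBP2 rose at Nut 10h, from 164.3 and 178.4 normalized counts to 409.9 and 431.8 (log2 fold change 1.30, adjusted p = 3.63e-06 by edgeR's quasi-likelihood test). BMP7, a BMP ligand, was called lower at Nut 1h (-0.76, and -0.22 with the offset, not called). It rose by 0.57 at Nut 10h. LTBP1 (-0.75) and BMP4 (-0.40) were called lower.

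Of 10 receptors and co-receptors tested, 4 were called higher and 1 lower at each time, and with the offset 2 were called in each direction at Nut 1h. BMPR2, the type II receptor for BMPs, was higher by 0.85 after 1 h (0.12 with the offset, not called) and 0.69 after 10 h on the log2 scale. ACVR2B, a type II activin receptor, rose by 0.75 at Nut 1h (0.40 with the offset), and ENG, which encodes the co-receptor endoglin, by 0.79 at Nut 10h, from 65.7 and 55.4 normalized counts to 123.7 and 85.6. ENG reached the 100 counts asked of a named gene only through its Nut 10h mean. BAMBI, a pseudoreceptor without a kinase domain that damps the pathway, was called lower at Nut 1h (-0.52, and -0.44 with the offset, where the call was lost at an adjusted p of 0.0527) and at Nut 10h (-0.73).

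Of 3 further SMAD genes, 1 was called higher and 1 lower after 1 h, and 1 higher and 2 lower after 10 h. SMAD6, the inhibitory SMAD of the BMP branch, had 339.2 and 339 normalized counts in vehicle, 69.2 and 74.3 in the 1 h libraries and 171.1 and 140.5 in the 10 h libraries. The log2 fold change was -2.24 after 1 h (adjusted p = 1.5e-07) and -1.12 after 10 h (adjusted p = 3.89e-05), by edgeR's quasi-likelihood test, and the 1 h value was -1.50 with the offset. Both SMAD6 and SMAD7 are inhibitory, and their changes against vehicle had opposite signs at both times. SMAD5, a BMP-branch SMAD like SMAD1, rose by 0.94 after 1 h (0.10 with the offset, not called) and 0.63 after 10 h. SMAD9, whose means stayed under 100 normalized counts in vehicle and at Nut 10h, falls outside the rule for named genes and was chosen after its values were seen, as the other SMAD called lower at Nut 10h (-1.08).

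Of 15 regulators of SMAD signalling tested, 8 were called higher and 4 lower at Nut 1h (3 and 6 with the offset), and 3 higher and 1 lower at Nut 10h. SKIL, a SMAD co-repressor that TGF-beta induces, had 206.8 and 225.4 normalized counts in vehicle, 853.8 and 714.8 in the 1 h libraries and 175 and 228.9 in the 10 h libraries, and its 10 h libraries overlapped vehicle. The rise at 1 h was 1.86 on the log2 scale (0.96 with the offset). TGIF1, a co-repressor, was called lower at Nut 1h (-0.93, and -1.47 with the offset), as was TGIF2 (-0.59 and -0.42). USP15, a deubiquitinase, rose by 0.72 after 1 h (-0.15 with the offset, not called) and 0.36 after 10 h. PPM1A, a SMAD phosphatase, rose by 0.71 at Nut 10h. LEMD3, a SMAD-binding protein of the inner nuclear membrane, was called lower at Nut 10h (-0.31). At Nut 1h LEMD3 was called higher (0.63, and 0.11 with the offset, not called).

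Of 15 common TGF-beta and BMP response genes tested, 5 were called higher and 6 lower at Nut 1h (7 and 4 with the offset), and 4 higher and 3 lower at Nut 10h, so the list had no single direction. CTGF, a matricellular protein, rose by 2.74 at Nut 1h (2.86 with the offset), from 264.8 and 214.1 to 1624 and 1576 normalized counts, and had 275.5 and 258.7 in the 10 h libraries. KLF10, a TGF-beta-induced repressor, rose by 1.18 at Nut 1h (0.95 with the offset) and was called lower at Nut 10h (-0.71). ANGPTL4, a secreted lipase inhibitor, was called lower at Nut 1h (-3.21, and -2.07 with the offset), as was ID1, a BMP target (-1.12 and -0.41). CDKN2B, which encodes the cell cycle inhibitor p15, rose by 0.76 at Nut 10h, and SNAI1, a repressor of epithelial genes, was called lower (-0.59).

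**Figure D5:**
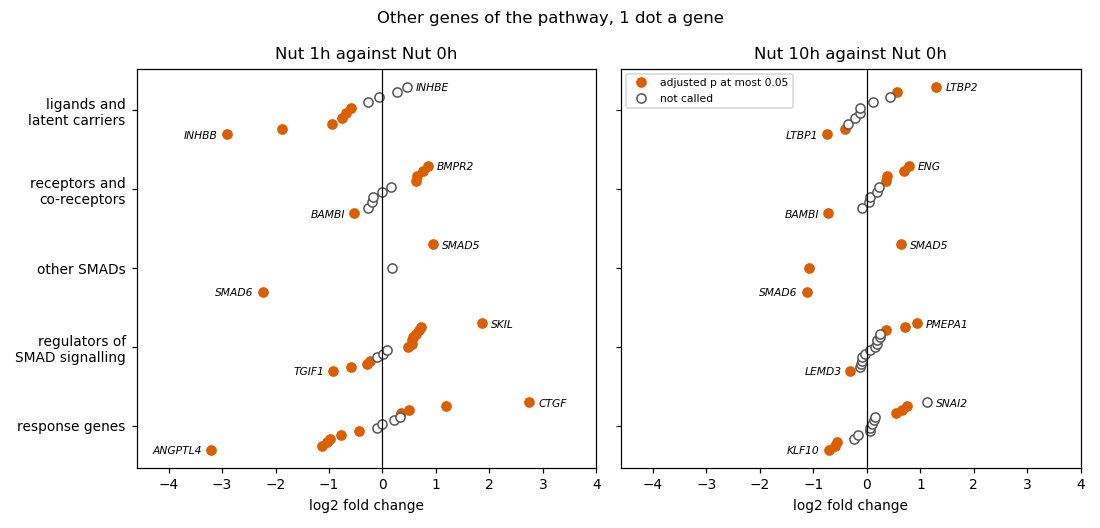
Log2 fold change at Nut 1h (left) and Nut 10h (right) against vehicle of the tested pathway genes outside the 9 members, 1 dot a gene, in 5 role lists, with 1 response gene not shown. Filled dots passed an adjusted p of 0.05 and open dots did not, and over all 53 tested genes 18 were higher and 18 lower at Nut 1h, and 14 higher and 9 lower at Nut 10h.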

How the data were processed

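Total RNA of the 6 libraries was sequenced as paired reads. The authors deposited raw counts per gene, and their processing notes name Trim Galore 0.6.6, STAR 2.7.0f, featureCounts of Subread 2.0.0 and GRCh37.p13. The strand setting was not given in the sources used here. A deposited table of the authors' own fold changes and p-values was used only to pair identifiers with names. The 9 genes and the pathway lists were chosen with earlier results of these data known.

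Counts were normalized by TMM and tested with edgeR 4.0.16 (R 4.3.3) in 1 model of all 3 conditions, with 3 residual degrees of freedom, after edgeR's filter on low counts (16565 of 57905 genes). Normalized counts are scaled to the mean effective library size. Intervals are 95% intervals of the quasi-likelihood fit. The GC-content offset was a loess fit (span 0.4) per library on the GC content of the longest GENCODE transcript, known for 97.4% of tested genes. The same annotation gave lengths for TPM. Library totals were 26068076 to 35473485 counts, and floors cover counting error only. Replicate libraries differed by more than counting error, so the totals alone did not set the precision. The chi-square per degree of freedom between replicates was lowest for the Nut 1h pair (5.13). It was 16.6 for the vehicle pair and 16.7 for the Nut 10h pair. Named pathway genes were, per list and time, up to 2 called rises and up to 2 called falls of greatest size for which the higher of the 2 condition means reached 100 normalized counts. Alternatives were DESeq2 1.42.0, its size factors, upper-quartile scaling, no filter, a replicate block, 2 conditions alone, other gene lengths and leaving out each library. The code was tested on simulated data. Values of 1 response gene are not reported here.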

Additional observations from a re-analysis of the deposited data

Results flagged for a closer look

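For 6 of the 9 genes the change against vehicle differed between the treated times, by the test of Nut 10h against Nut 1h in edgeR's quasi-likelihood fit. Over all tested genes 67.9% were called in this comparison, so 6 of 9 is near the share of the whole table. The log2 difference was 4.35 for GDF15 (adjusted p = 6.53e-11), 1.14 for TGFB1 (adjusted p = 1.66e-06), 0.62 for SMAD3 (adjusted p = 2.33e-05), -0.35 for SMAD2 (adjusted p = 0.00332), -0.36 for TGFBR1 (adjusted p = 0.00996) and -0.27 for SMAD4 (adjusted p = 0.0262). The calls of TGFBR1 and SMAD4 were lost without Nut 1h replicate 1 (-0.28 and -0.19) and without Nut 10h replicate 1 (-0.21 and -0.16). With the GC-content offset, GDF15 and SMAD3 kept their direction and their call (3.17 and 0.46). TGFB1 was then at -0.0031, and TGFBR1, SMAD2 and SMAD4 had the opposite sign (0.35, 0.29 and 0.33). The part of the GC-content trend in these differences was not tested beyond this offset.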

How the results depend on the processing

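Every value is a count of genes called or a log2 fold change, and "without a library" means leaving out each of the 6 in turn. The setting that moved most results was the GC-content offset. The members called higher and lower at Nut 1h were 5 and 3 and became 2 and 6 with it, and from Nut 1h to Nut 10h 3 and 3 became 7 and 1, with the same counts when a replicate block was added. Over all genes the offset gave 29.1% higher and 28.8% lower from Nut 1h to Nut 10h. With the offset, alone and with the replicate block, these signs turned: TGFBR2 (-0.26 and -0.26), SMAD2 (-0.30 and -0.30) and SMAD4 (-0.38 and -0.38) at Nut 1h, SMAD2 (-0.015 and -0.016) at Nut 10h, and, from Nut 1h to Nut 10h, TGFBR1 (0.35 and 0.35), TGFBR2 (0.47 and 0.47), TGFB1 (-0.0031 and -0.0037), SMAD2 (0.29 and 0.29) and SMAD4 (0.33 and 0.33). Members called lower at Nut 10h were 0 and became 1 (TGFB1) with the offset, with the offset and replicate block, and with no filter on low counts. With no filter, 3 members were called higher at Nut 1h. Upper-quartile scaling gave SMAD1 0.037 and SMAD4 0.030 at Nut 10h, and no filter gave SMAD2 -0.030 there. Without a library, members called higher at Nut 1h ranged from 3 to 5, lower at Nut 10h from 0 to 1 and lower from Nut 1h to Nut 10h from 1 to 3. Values whose sign changed without a library were those of SMAD1 at Nut 1h (-0.22 to 0.047) and Nut 10h (-0.11 to 0.092), SMAD2 (-0.028 to 0.063) and SMAD4 (-0.088 to 0.068) at Nut 10h, and SMAD1 (-0.058 to 0.21) and SMAD7 (-0.42 to 0.026) from Nut 1h to Nut 10h, none of which was called without the offset. With the offset SMAD1 was called at Nut 1h (-0.81), and SMAD1 (0.76) and SMAD7 (-0.83) were called from Nut 1h to Nut 10h. GDF15 at Nut 10h ranged from 2.86 to 3.16.

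Nothing in the labels says that a replicate number marks a shared culture or day. Deviations of same-numbered libraries correlated at -0.309, 0.446 and -0.279 for Nut 1h against Nut 0h, Nut 10h against Nut 0h and Nut 10h against Nut 1h, so the sign differed between comparisons and the numbers were not taken as pairs. A replicate block without the offset changed none of the 27 member results in direction or call, and the table-wide calls at Nut 1h went from 11077 to 10979, and those at Nut 10h from 4810 to 4893. Other causes of a changed value were not tested. With 2 libraries a condition and 3 residual degrees of freedom, the log2 interval of SMAD1 at Nut 10h ran from -0.27 to 0.25, so a change within it was not excluded for that gene.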
